A study of Arabidopsis thaliana with 15 samples.

Results

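The question was where losing 2 endosomal antiporters together changed leaf transcripts by more, or by less, than both single losses added up. NHX5 and NHX6 are a pair of closely related proteins of the endosomes that trade potassium or sodium ions against protons. By letting protons leave the lumen they counteract the proton pumps that acidify these compartments, and in Arabidopsis thaliana they are known for their shared role in growth and in the transport of proteins to the vacuole. When 1 gene of such a pair can stand in for the other, each single loss changes little and only the double loss shows an effect, which is 1 kind of non-additive effect.

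The non-additive effect of a probe set was the mean of the double knockout nhx5-2/nhx6-2, minus the mean of nhx5-2, minus the mean of nhx6-2, plus the mean of wild type. It is zero where the double knockout stands where both single differences from wild type would put it. It used 12 of the 15 arrays of the study, 3 for each of the 4 genotypes, and 22746 of 22810 probe sets, leaving out the 64 control probe sets. All plants were Columbia, 4 weeks old, and grown on soil with 8 h of light and 16 h of darkness, and each array was hybridized with RNA of rosette leaves. The nhx5-2 allele is the GABI T-DNA line GABI-09H405 and nhx6-2 is SALK_100042, and nhx5-2/nhx6-2 joins both. The double knockout nhx5-1/nhx6-1 carries other insertions, WiscDsLox345-348M8 and SALK_113129. Its single knockouts were not analysed here, so its 3 arrays are given beside the results and do not enter the effect. Each mutant genotype is thus 1 line, and the transcripts of NHX5 and NHX6, which the annotation does not list, are not analysed here.

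Levels are in the deposited unit, a log-like score of unstated base. On the spike-in controls a doubling was worth 0.681 ± 0.028 units (SD over 15 arrays), so 1 unit was about 2.77-fold there. Adding differences on such a scale means multiplying fold changes. Differences carry the standard error (SE) of the model, and p-values are from limma, with the Benjamini-Hochberg adjustment over the whole array and 0.05 as the threshold. Array values are always given in the order of replicates 1, 2 and 3.

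The controls that match no plant transcript had a median of -0.73. In wild type the 5 measured nuclear photosynthesis genes stood clear of it, with a median level of 4.95, while the 2 root markers (-0.59) and the meristem gene CLV3 (-0.71) lay near it. A listed gene is called measured where the annotation gives it as the only gene of a probe set. Other listed genes may be on the array without a name here, since 8730 tested probe sets are not in the annotation. Levels of different probe sets are not compared with each other here. Some arrays stood apart. The values of nhx5-2 replicate 1 had an SD of 0.797 over probe sets, against 0.878 to 0.893 on the other 11 arrays, and those of nhx5-1/nhx6-1 replicate 3 had an SD of 0.762. On nhx6-2 replicate 3 the abscisic acid, drought and cold genes had a median of 1.38, against 0.69 and 0.71 on replicates 1 and 2. The touch and rapid wound genes were also high there, at -0.13 against -0.65 and -0.63, and on nhx5-2 replicate 1, at -0.38 against -0.71 and -0.72. On nhx5-2 replicate 1 the controls that match no plant transcript were raised too, at -0.61 against -0.78 and -0.80. So were the root markers on that array, at -0.41 against -0.60 and -0.62. On nhx6-2 replicate 3 these controls read -0.71, against -0.79 and -0.80 on replicates 1 and 2. The 3′ minus 5′ signal, which sets the 3′ control probe sets of actin and GAPDH against their 5′ ones, also differed between genotypes. It was 1.45 ± 0.10 in wild type (SD, n = 3), 1.09 ± 0.048 in nhx5-2, 1.15 ± 0.078 in nhx6-2 and 1.57 ± 0.25 in nhx5-2/nhx6-2. The single knockouts were thus the lowest, and the measure had a non-additive effect of its own, 0.79. It was highest in nhx5-1/nhx6-1, at 1.93 ± 0.081, where each array lay above all arrays of the other genotypes.

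**Figure D1:**
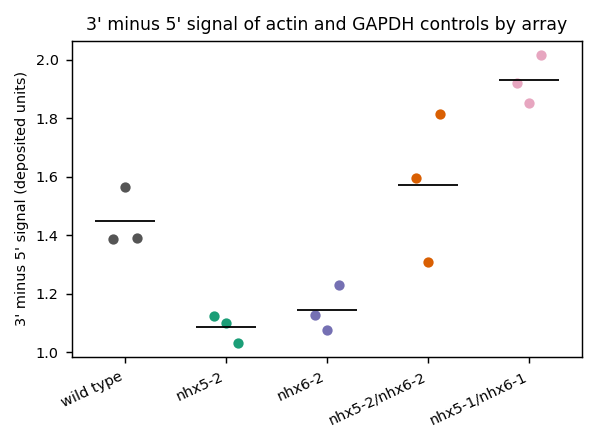
The 3′ minus 5′ signal of the actin and GAPDH control probe sets in deposited units (y axis) on each array (points, 3 per genotype on the x axis), with the mean of each genotype as a line. The 6 single-knockout arrays lie between 1.03 and 1.23, below the 6 arrays of wild type and nhx5-2/nhx6-2, which lie between 1.31 and 1.81. The arrays of nhx5-1/nhx6-1 lie highest, between 1.85 and 2.02.

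In the leaves of nhx5-2/nhx6-2, 254 of 22746 probe sets (1.12%) departed from the sum of both single losses. Of these, 171 (0.752% of those tested) lay above the sum and 83 (0.365%) below it. After all arrays were centred on 1 median, 187 lay above and 56 below. The effects ran from -2.18 to 1.51 with a median size of 0.54, and 30 were at least 1 unit. The median effect over all probe sets was 0.00033. At an unadjusted p under 0.05 there were 3217 probe sets (14.1%). Of the 254, 126 had 1 listed gene, 7 had several and 121 are not listed in the annotation used.

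The count depended on which arrays entered. A fit with all 15 arrays, which leaves the effect itself unchanged and draws the spread from all 5 genotypes, gave 22 probe sets, 10 above and 12 below the sum. The median SE over all probe sets was 0.097 in that fit and 0.076 in the fit of 12 arrays. With the 3′ minus 5′ signal of each array as a covariate, 1 probe set passed, and in the 254 the median size of the effect was 0.46 and its median SE 0.18, against 0.092 without the covariate. Leaving out 1 array gave between 49 probe sets (without nhx5-2/nhx6-2 replicate 1) and 693 (without nhx6-2 replicate 3), and without wild type replicate 1 there were 54. The sign of the effect was the same for all 254 in all of these fits, and 43 of them, 28 above and 15 below the sum, passed in all 12 fits without 1 array. These fits share the arrays that chose the 254, so the kept sign is no separate support. Whether the 3′ minus 5′ signal has a part in these effects was not tested beyond this covariate.

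**Figure D2:**
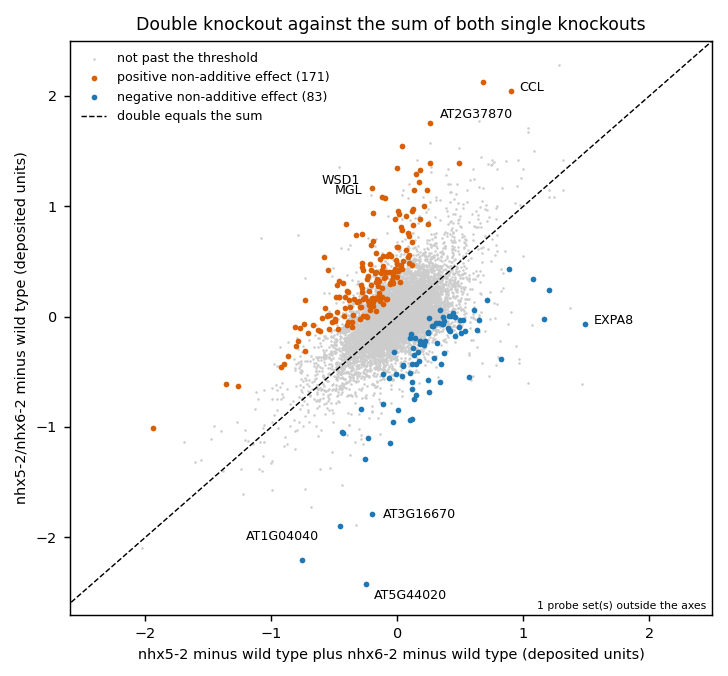
Each point is a probe set, with the sum of both single-knockout differences from wild type on the x axis and the difference of nhx5-2/nhx6-2 from wild type on the y axis, both in deposited units. The dashed line is where both are equal, and the 171 positive (orange) and 83 negative (blue) effects past the threshold lie off it, AT5G44020 the farthest below at -2.43 on the y axis.

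The 254 probe sets were sorted by the genotype that carries the effect, as a description of the group means with no test. Of the 171 above the sum, 92 (53.8%) were high in the double knockout alone, with each single difference under 0.5 of that of the double. In another 21 the double was also higher than either single, but the difference of a single knockout was at least that share. In 44 (25.7%) both single knockouts were lower than wild type and the double was nearer to wild type than either, and in 14 both were lower while the double was not nearer than both. Of the 83 below the sum, 40 (48.2%) were low in the double alone, 8 were lower there than in both singles, and in 29 (34.9%) both singles were higher than wild type and the double was nearer to it than either. In 5 both singles were higher while the double was not nearer to wild type than both, and 1 was of none of these kinds.

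In 180 of the 254 (70.9%) the 3 arrays of nhx5-2/nhx6-2 lay apart from the other 9, against 12.6% of all probe sets. The double knockout itself differed from wild type in 168 of the 254, where 13.6% of all probe sets passed, and it differed from both single knockouts in 200, where 5.21% of all did. A single knockout differed from wild type in 33, where 1.01% of all did. In 62 (24.4%, against 0.699% of all) the 6 single-knockout arrays lay apart from the 6 of wild type and the double. These comparisons share arrays with the effect that chose the 254, so nothing further is read from them.

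Among probe sets with 1 gene of known chromosome, the share that passed was 1.04% on chromosome 1, 0.682% on chromosome 2, 0.983% on chromosome 3, 1.02% on chromosome 4 and 0.898% on chromosome 5. None of the 69 measured genes of the plastid genome passed.

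The genes described first are the 15 with the largest positive and the 15 with the largest negative effect among those with 1 gene. In 26 of these 30 the arrays of nhx5-2/nhx6-2 lay apart from the other 9, against 12.6% of all probe sets. The 30 were chosen for their effect on these same arrays, so nothing further is read from this count. All 30 kept their sign in the 12 fits without 1 array and in the other 11 settings, which also follows largely from that choice. Of the 30, 11 passed in each of the 12 fits without 1 array. With all 15 arrays 6 of the 30 passed, and with the 3′ minus 5′ covariate 1 did.

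**Figure D3:**
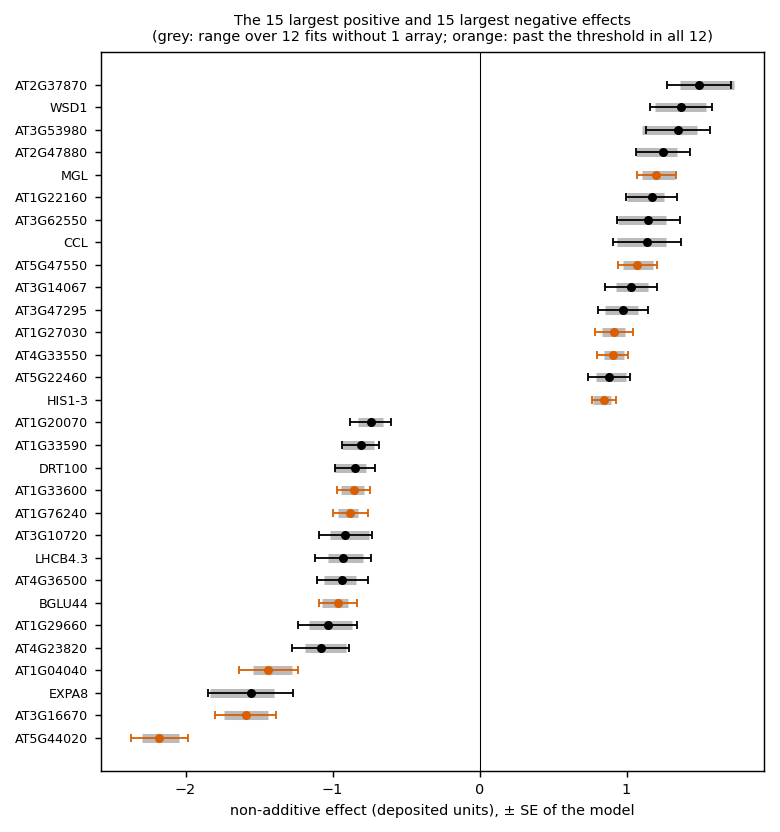
Non-additive effect of the 15 genes with the largest positive and the 15 with the largest negative value, in deposited units (x axis), with 1 gene per line. Points with bars are the effect ± SE, grey bars the range over the 12 fits without 1 array, and orange marks the 11 genes past the threshold in all 12, from AT5G44020 at -2.18 to MGL at 1.20.

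Of the 15 genes above the sum, 5 passed in every fit without 1 array. MGL encodes methionine gamma-lyase, an enzyme that breaks methionine down and is induced by stress. Its level was -0.18, -0.10 and -0.17 on the wild type arrays, -0.35, -0.28 and -0.27 on those of nhx5-2 and -0.21, -0.014 and -0.16 on those of nhx6-2. On the nhx5-2/nhx6-2 arrays it was 0.98, 1.13 and 0.68. Every double-knockout array was thus above the other 9, which lay close together. The effect was 1.20 ± 0.13 units (SE, adjusted p = 0.00496). The nhx5-1/nhx6-1 arrays read 0.30, 1.26 and 0.50, a mean 0.84 above wild type.

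HIS1-3 encodes a linker histone H1 variant that is induced by drought. It read -0.65, -0.59 and -0.67 in wild type, -0.54, -0.60 and -0.60 in nhx5-2 and -0.60, -0.67 and -0.61 in nhx6-2. In nhx5-2/nhx6-2 it read 0.43, 0.18 and 0.23. The 9 arrays of wild type and the singles lay near the median of the controls that match no plant transcript, which ran from -0.81 to -0.57 over the arrays, so the size of the rise is a lower bound. The effect was 0.85 ± 0.081 (adjusted p = 0.00183), and nhx5-1/nhx6-1 read 0.32, 0.65 and 0.11, clear of the same 9 arrays.

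AT5G47550 encodes a cystatin, an inhibitor of cysteine proteases. In wild type its level was 1.03, 1.18 and 1.05, and it was 0.71, 0.85 and 0.90 in nhx5-2 and 0.82, 1.00 and 1.24 in nhx6-2. In nhx5-2/nhx6-2 it was 1.91, 1.76 and 1.82, above all the others, while the singles lay within or below the range of wild type except for nhx6-2 replicate 3. The effect was 1.07 ± 0.13 (adjusted p = 0.00649). On the nhx5-1/nhx6-1 arrays it was 1.32, 1.85 and 1.16, so only replicate 2 reached the level of the other double.

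AT4G33550, a gene related to lipid transfer proteins and seed 2S albumins, read -0.15, -0.068 and -0.23 in wild type, -0.031, 0.027 and -0.15 in nhx5-2 and 0.15, -0.12 and -0.057 in nhx6-2. It read 1.10, 0.96 and 0.93 in nhx5-2/nhx6-2. The effect of 0.90 ± 0.11 (adjusted p = 0.00649) thus came from the double knockout alone. In nhx5-1/nhx6-1 it read -0.24, 0.52 and 0.17, with replicate 1 at the level of wild type.

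AT1G27030 is a gene to which no role is given here. Its level was 0.35, 0.53 and 0.54 in wild type, 0.34, 0.49 and 0.18 in nhx5-2, 0.77, 0.64 and 0.47 in nhx6-2 and 1.50, 1.36 and 1.35 in nhx5-2/nhx6-2. The effect was 0.91 ± 0.13 (adjusted p = 0.0117). Here nhx5-1/nhx6-1 read 1.84, 2.17 and 1.63, above the other double knockout on every array.

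The largest positive effects were in genes with a wider spread. AT2G37870, of the same family as AT4G33550, had the largest of the 15 with 1.49 ± 0.22 (adjusted p = 0.0137). It read -0.35, -0.36 and -0.40 in wild type, -0.42, -0.28 and -0.38 in nhx5-2, -0.34, -0.36 and 0.37 in nhx6-2 and 1.50, 1.36 and 1.30 in nhx5-2/nhx6-2. In nhx6-2 replicate 3, the array with high drought and cold genes, stood above the other 8 arrays of wild type and the singles. The adjusted p was 0.0503 without nhx5-2/nhx6-2 replicate 1. AT3G53980, of that family too, had an effect of 1.35 ± 0.22 (adjusted p = 0.0207). It lay between -0.44 and -0.27 on all 9 arrays of wild type and the singles and at 1.51, 0.78 and 0.75 in nhx5-2/nhx6-2, and it did not pass without wild type replicate 1 (0.0679) or without nhx5-2 replicate 3. In nhx5-1/nhx6-1 the level was -0.16, 0.67 and -0.057 for AT2G37870 and -0.41, 0.11 and -0.21 for AT3G53980, below every array of nhx5-2/nhx6-2 in both.

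WSD1 encodes a wax ester synthase of the plant surface. It read 0.16, 0.031 and -0.0045 in wild type, -0.26, -0.32 and -0.24 in nhx5-2, -0.040, 0.22 and 0.40 in nhx6-2 and 1.21, 1.58 and 0.89 in nhx5-2/nhx6-2. The double was the highest on every array and nhx5-2 the lowest, and the effect was 1.37 ± 0.21 (adjusted p = 0.0156). It did not pass without wild type replicate 1 (0.0543) or without nhx5-2/nhx6-2 replicate 1. In nhx5-1/nhx6-1 the level was 0.15, 1.54 and 0.97, so replicate 1 stayed inside the range of wild type.

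CCL encodes a transcript that cycles with the circadian clock. It read 0.98, 1.54 and 0.88 in wild type, 1.20, 1.55 and 1.61 in nhx5-2, 1.65, 1.80 and 1.67 in nhx6-2 and 3.37, 2.99 and 3.15 in nhx5-2/nhx6-2. It stood 2.04 units above wild type in the double (adjusted p = 3.21e-05), about 7.97-fold on the spike-in scale, the largest rise of the 30. Both singles had means above wild type, by 0.32 and 0.58, without passing the test, and the effect was 1.14 ± 0.23 (adjusted p = 0.0438). CCL passed in only 2 of the 12 fits without 1 array. In nhx5-1/nhx6-1 it was 2.80, 2.92 and 2.74, above all 9 arrays of wild type and the singles.

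The remaining 6 of the 15 were also highest in the double. AT2G47880, of the glutaredoxin family, had an effect of 1.25 ± 0.18, and AT1G22160, which encodes an FLZ zinc finger protein, one of 1.17 ± 0.17. Both passed in all fits without 1 array but that without nhx5-2/nhx6-2 replicate 1, where the adjusted p was 0.0505 and 0.0538. AT3G62550, a universal stress protein gene, read 1.51, 1.33 and 1.72 in nhx5-2/nhx6-2 and 1.79, 1.55 and 1.38 in nhx5-1/nhx6-1, against at most 0.64 on the other 9 arrays. Its effect of 1.15 ± 0.21 did not pass in 8 of the 12 fits without 1 array. The subtilase gene AT3G14067, AT3G47295 and the alpha/beta hydrolase gene AT5G22460 had effects of 1.03, 0.98 and 0.88, and they did not pass in 7, 5 and 4 of those fits. In nhx5-1/nhx6-1, AT3G14067 stood 0.51 above wild type (adjusted p = 0.037). AT3G47295 and AT5G22460 were there only 0.083 and 0.093 above it (adjusted p = 0.796 and 0.767). AT3G47295 was the 1 of the 15 not classed as high in the double alone, since both singles lay below wild type (differences of -0.35 and -0.21) and the double above it by 0.42.

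**Figure D4:**
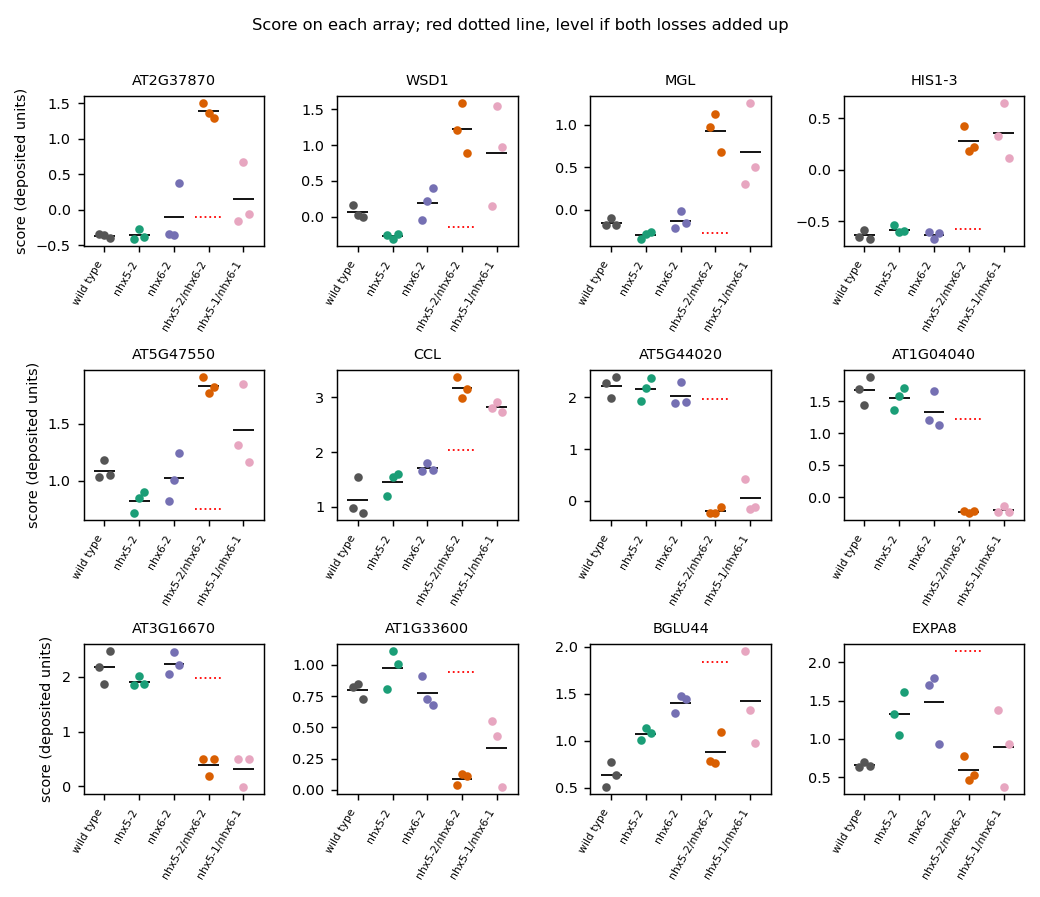
Level in deposited units (y axis of each panel, with its own range) of 12 genes on each of the 15 arrays (points) by genotype, with the genotype mean as a black line and the level that the sum of both single losses would give as a red dotted line. In AT5G44020 the double sits between -0.25 and -0.13 while the dotted line is near the wild type mean, whereas in EXPA8 the singles are high and the double is near wild type.

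The largest effect past the threshold was a loss. AT5G44020, which encodes a protein of the HAD superfamily of acid phosphatases, read 2.27, 1.99 and 2.40 in wild type, 1.93, 2.19 and 2.37 in nhx5-2 and 1.88, 2.29 and 1.91 in nhx6-2. It read -0.24, -0.25 and -0.13 in nhx5-2/nhx6-2. The double was thus far below the other 9 arrays, which overlapped among themselves. It fell by 2.43 units from wild type, about 11.8-fold on the spike-in scale, and the effect was -2.18 ± 0.19 (adjusted p = 0.00122, from 0.00113 to 0.00802 without 1 array). In nhx5-1/nhx6-1 the level was 0.41, -0.17 and -0.12, a mean of -2.18 against wild type.

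AT1G04040 encodes another protein of the same superfamily. It read 1.70, 1.44 and 1.88 in wild type, 1.36, 1.58 and 1.70 in nhx5-2, 1.21, 1.67 and 1.13 in nhx6-2 and -0.21, -0.25 and -0.21 in nhx5-2/nhx6-2. It fell by 1.89 units, or about 6.88-fold, and its effect was -1.44 ± 0.20 (adjusted p = 0.0109). The nhx5-1/nhx6-1 arrays read -0.22, -0.13 and -0.22, the same low level as the other double.

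AT3G16670, of the pollen Ole e 1 allergen and extensin family of secreted proteins, showed the same picture. Its level was 2.19, 1.87 and 2.48 in wild type, 1.85, 2.01 and 1.87 in nhx5-2, 2.06, 2.47 and 2.21 in nhx6-2 and 0.49, 0.18 and 0.49 in nhx5-2/nhx6-2. The effect was -1.59 ± 0.21 (adjusted p = 0.0097), and nhx5-1/nhx6-1 read 0.49, -0.025 and 0.49. The HAD superfamily pair and this gene passed in all 12 fits without 1 array.

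AT1G33600, AT1G33590 and DRT100 encode leucine-rich repeat proteins. AT1G33600 read 0.82, 0.85 and 0.73 in wild type, 0.80, 1.11 and 1.01 in nhx5-2, 0.91, 0.72 and 0.68 in nhx6-2 and 0.037, 0.13 and 0.11 in nhx5-2/nhx6-2, with an effect of -0.86 ± 0.11 (adjusted p = 0.0097). AT1G33590, whose locus number is next to it, had an effect of -0.81 ± 0.13 and read 0.75, 0.79 and 0.87 in the double against at least 1.23 on the other 9 arrays. DRT100, first described as a gene that complements repair mutants of bacteria, had an effect of -0.85 ± 0.14 and read 0.25, 0.30 and 0.23 against at least 0.84. AT1G33600 passed in all fits without 1 array, and AT1G33590 and DRT100 in all but those without wild type replicate 1 and without nhx5-2/nhx6-2 replicate 1. Related genes can share probe sequence, and whether these probe sets read each other's transcripts was not tested.

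The other genes low in the double were spread over several roles. AT1G76240, to which no role is given here, read 1.07, 1.11 and 1.16 in wild type and 0.27, 0.32 and 0.52 in nhx5-2/nhx6-2, with singles between 0.98 and 1.33. Its effect of -0.88 ± 0.12 (adjusted p = 0.00999) passed in all 12 fits without 1 array, and nhx5-1/nhx6-1 read 1.01, 0.60 and 0.72. Among genes of the cell wall, AT4G23820 (a pectin lyase-like protein) had an effect of -1.08 ± 0.19 and AT3G10720 (a pectin methylesterase) one of -0.91 ± 0.18. In both, each double-knockout array of nhx5-2/nhx6-2 was below every other of the 12, at -0.13, -0.25 and -0.15 for AT4G23820 and -0.043, -0.057 and -0.090 for AT3G10720. The GDSL lipase gene AT1G29660 read 1.98, 2.01 and 1.91 in the double against 3.35, 2.92 and 3.51 in wild type, an effect of -1.03 ± 0.20. The effect of AT4G36500, given no role here, was -0.93 ± 0.17. These 4 genes did not pass in 7 to 9 of the 12 fits without 1 array.

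Among the 4 genotypes of the effect, LHCB4.3, a variant of the CP29 antenna protein of photosystem II, was lowest in nhx5-2/nhx6-2 and highest in nhx6-2. It read 1.43, 1.02 and 1.36 in wild type, 1.17, 1.16 and 1.40 in nhx5-2, 1.59, 1.78 and 1.53 in nhx6-2 and 0.89, 0.74 and 0.41 in nhx5-2/nhx6-2. The effect was -0.93 ± 0.19 (adjusted p = 0.0443), and it passed in 1 of the 12 fits without 1 array, that without nhx6-2 replicate 3. In nhx5-1/nhx6-1 LHCB4.3 read 0.20, 0.54 and 0.40, a mean of -0.89 against wild type (limma adjusted p = 0.000958). The other 4 measured nuclear photosynthesis genes did not pass, among them its relatives LHCB4.1 and LHCB4.2, with effects of 0.39 ± 0.25 and 0.38 ± 0.19 (adjusted p = 0.548 and 0.416).

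In 3 of the 30 genes the class was the reverse, with both single knockouts farther from wild type than the double. BGLU44 encodes a beta-glucosidase. It read 0.50, 0.77 and 0.63 in wild type, 1.01, 1.13 and 1.08 in nhx5-2, 1.29, 1.47 and 1.44 in nhx6-2 and 0.78, 0.76 and 1.09 in nhx5-2/nhx6-2. All 3 nhx6-2 arrays were above those of the double, and the nhx6-2 difference from wild type of 0.77 passed (adjusted p = 0.00613), that of nhx5-2 (0.44) did not. The effect was -0.96 ± 0.13 (adjusted p = 0.0106), and nhx5-1/nhx6-1 read 1.95, 1.32 and 0.98, with replicate 1 above every other array. The mean of nhx5-1/nhx6-1 was 0.78 above wild type (adjusted p = 0.0116).

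EXPA8 encodes an expansin, a protein that loosens cell walls. It read 0.64, 0.69 and 0.65 in wild type, 1.32, 1.05 and 1.62 in nhx5-2, 1.71, 1.80 and 0.93 in nhx6-2 and 0.78, 0.46 and 0.53 in nhx5-2/nhx6-2. The 6 single-knockout arrays were above the other 6, but neither single difference from wild type passed (adjusted p = 0.323 and 0.107), and the effect was -1.56 ± 0.29 (adjusted p = 0.0303). It passed in 3 of the 12 fits without 1 array, and nhx5-1/nhx6-1 read 1.38, 0.37 and 0.93. The other 15 measured genes of cell wall loosening did not pass, and the median effect of all 16 was -0.016. AT1G20070, given no role here, read 0.24, 0.39 and 0.054 in wild type, 0.46, 0.58 and 0.66 in nhx5-2, 1.10, 0.90 and 0.91 in nhx6-2 and 0.52, 0.43 and 0.74 in nhx5-2/nhx6-2, an effect of -0.74 ± 0.14. Its double was also above wild type, by 0.34 (adjusted p = 0.0453), close to the 0.34 of nhx5-2. In nhx5-1/nhx6-1 AT1G20070 read 1.17, 1.53 and 0.81, a mean 0.94 above wild type (adjusted p = 0.00114) and above the means of both singles. The effect did not pass in 8 of those 12 fits. Once each array's 3′ minus 5′ signal entered the fit, none of these 3 genes passed (adjusted p = 0.235 for BGLU44, 0.998 for EXPA8 and 0.308 for AT1G20070). With that covariate only 1 of all 22746 probe sets and 1 of the 30 named genes passed, so this does not set the 3 apart.

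A further 15 of the 254 probe sets with 1 gene carry a gene symbol. They are named here after their values were seen, and BETA-VPE is described with its list. Of these 15, 4 act in sugar transport or starch synthesis. TMT2, a sugar transporter of the vacuolar membrane, lay above the sum with an effect of 0.48 ± 0.064 (adjusted p = 0.00999). It read 0.35, 0.24 and 0.30 in wild type and 0.81, 0.77 and 0.73 in nhx5-2/nhx6-2, with singles between 0.19 and 0.40. SAG29, a sugar efflux transporter of the SWEET family that is high in senescence, had an effect of 0.75 ± 0.14 (adjusted p = 0.0346) and read 0.54, 0.47 and 0.035 in the double against -0.46, -0.46 and -0.41 in wild type. SWEET2, another of this family, lay below the sum with -0.61 ± 0.097 (adjusted p = 0.0189) and had a double -1.05 units from wild type. APL3, a large subunit of ADP-glucose pyrophosphorylase, which feeds starch synthesis, had an effect of 0.66 ± 0.11 (adjusted p = 0.0212). It read 0.38, 0.51 and 0.32 in wild type and 0.96, 1.01 and 0.81 in the double. The direction was thus the same in TMT2, SAG29 and APL3 and opposite in SWEET2. In nhx5-1/nhx6-1, SWEET2 stood -1.12 from wild type (adjusted p = 3.42e-06). TMT2, SAG29 and APL3 stood 0.18, 0.33 and 0.28 above wild type there and did not pass (adjusted p = 0.395, 0.177 and 0.258). Of the sugar genes listed, APL3 passed and 3 others did not, and the median effect of the 4 was 0.012.

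Among the rest, SIS, named for its induction by salt, had an effect of 0.70 ± 0.094 (adjusted p = 0.00999) and the double stood 0.83 above wild type. BGLU16, a beta-glucosidase, lay below the sum with -0.48 ± 0.060 (adjusted p = 0.00736). TMT2, SIS and BGLU16 were among the 43 probe sets that passed in all 12 fits without 1 array. The peptide hormone gene RALFL32 (0.59 ± 0.091), the plantacyanin ARPN (0.46 ± 0.077), the proline iminopeptidase PIP (0.46 ± 0.089) and AAH (0.34 ± 0.070) lay above the sum. The glutathione S-transferase GSTU26 (0.23 ± 0.048) did too. It read at the level of the controls that match no plant transcript on all 9 arrays of wild type and the singles. In the double it read -0.49, -0.53 and -0.52, close to that level, so the size of its effect is uncertain. CRR41 (-0.47 ± 0.094), the beta-tubulin TUB5 (-0.54 ± 0.11) and P1R1 (-0.58 ± 0.12) lay below it. TUB5 read 0.32, 0.29 and 0.42 in nhx5-2/nhx6-2 and 1.02, 0.78 and 0.67 in nhx5-1/nhx6-1, where it stayed near the wild type values of 0.72, 0.81 and 0.78.

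Vacuolar proteases were of interest because endosomal pH bears on the delivery of proteins to the vacuole. Of 8 measured, 1 passed. BETA-VPE, a vacuolar processing enzyme best known from seeds, read -0.11, -0.041 and -0.19 in wild type, 0.072, -0.053 and -0.14 in nhx5-2, -0.093, -0.24 and -0.043 in nhx6-2 and 0.52, 0.52 and 0.43 in nhx5-2/nhx6-2. Its effect was 0.54 ± 0.092 (adjusted p = 0.0261), it did not pass in 7 of the 12 fits without 1 array, and nhx5-1/nhx6-1 read 0.32, 0.93 and 0.45. GAMMA-VPE, a form of vegetative tissue, had an effect as large, 0.60 ± 0.20, with a wider error (adjusted p = 0.185). It read 1.28, 1.71 and 1.25 in wild type and 2.29, 2.34 and 2.10 in the double. The median effect of the 8 was 0.15, with 6 of 8 above zero, against 11396 of all 22746 probe sets. In nhx5-2/nhx6-2, 4 of the 8 rose against wild type, as did 6.4% of all probe sets. The carboxypeptidase SCPL49 and the aspartic protease APA1 had effects of 0.22 ± 0.076 and 0.27 ± 0.10 (adjusted p = 0.22 and 0.258).

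None of 14 autophagy genes departed from the sum past the threshold. Against wild type, 9 of them rose in nhx5-2/nhx6-2, as did 6.4% of all probe sets. The effect was positive in 12 of 14, against 11396 of all 22746 probe sets. At an unadjusted p under 0.05 there were 4 of the 14, against 14.1% of all probe sets. The median effect was 0.14, and it was 0.055 without wild type replicate 2. Under the 3′ minus 5′ covariate it was 0.00019. After quantile normalization 1 of the 14 passed, where 662 of all 22746 probe sets did. With array weights 3 of the 14 passed, where 3529 of all did. ATG8 proteins coat the forming autophagosome. ATG8F stood 0.62 above wild type in the double, 0.21 in nhx5-2 and 0.46 in nhx6-2, so that the singles added up to the double within the error (effect -0.040 ± 0.15). ATG8C stood 0.56 above wild type in the double with singles at 0.067 and 0.15, an effect of 0.34 ± 0.12 (adjusted p = 0.231). ATG8G and ATG3 had effects of 0.23 ± 0.066 and 0.25 ± 0.083 (adjusted p = 0.138 and 0.183).

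The machinery nearest to the antiporters showed no departure past the threshold. Of 33 listed proton pump genes 9 were measured and none passed, with effects from -0.30 to 0.17 and a median of 0.012. VHA-A3, a membrane subunit of the vacuolar pump, had the smallest p, with an effect of -0.30 ± 0.095 (adjusted p = 0.176). VHA-A1, the form of the endosomal trans-Golgi compartment, had 0.096 ± 0.070 (adjusted p = 0.604). Of 35 listed trafficking genes 2 were measured, and neither passed. The endosomal GTPase ARA6 had 0.056 ± 0.094 and the cation exchanger CHX20 0.022 ± 0.15 (adjusted p = 0.845 and 0.969), and none of 5 genes for folding in the endoplasmic reticulum passed (median 0.18). No member of the list of potassium and sodium transport could be identified in the annotation used, so these genes were not assessed.

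Genes that respond to abscisic acid, drought and cold had a median effect of 0.46, and with all 12 arrays none of the 7 passed. The median depended on the nhx6-2 arrays, at 0.25 without replicate 1, 0.19 without replicate 2 and 0.93 without replicate 3, and it was 0.053 with the 3′ minus 5′ covariate. COR15A, which protects chloroplast membranes in the cold, read 2.18, 2.63 and 1.94 in wild type, 2.26, 2.36 and 2.16 in nhx5-2, 1.85, 1.90 and 3.45 in nhx6-2 and 3.79, 3.54 and 3.66 in nhx5-2/nhx6-2. Replicate 3 of nhx6-2 thus stood just under the lowest array of the double, while replicates 1 and 2 were under every wild type array. The effect was 1.26 ± 0.48 (adjusted p = 0.263). PUB19, a ubiquitin ligase of drought responses, showed the same picture with -0.24, -0.30 and 1.13 in nhx6-2 and 1.73, 1.31 and 1.36 in nhx5-2/nhx6-2, an effect of 1.12 ± 0.42 (adjusted p = 0.25).

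Without nhx6-2 replicate 3, 693 of all probe sets passed (3.05%, and 1.56% above the sum), and 5 of the 7 genes did. That array was described above by its high level of these same genes, so the calls made without it are a description and no independent evidence. The effects were then 1.78 for COR15A, 1.59 for PUB19 and 1.30 for COR15B. ALDH7B4, an aldehyde dehydrogenase of stress, had 0.93 and the dehydrin LTI30 0.62, while COR47 and LEA4-5 did not pass. In ALDH7B4, COR47, LTI30 and LEA4-5, nhx6-2 replicate 3 was itself above every array of nhx5-2/nhx6-2. In the other 11 fits without 1 array, none of the 7 passed. In nhx5-1/nhx6-1 the 3 array medians of the list were 1.76, 2.19 and 1.43, against 0.42, 0.78 and 0.46 in wild type.

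**Figure D5:**
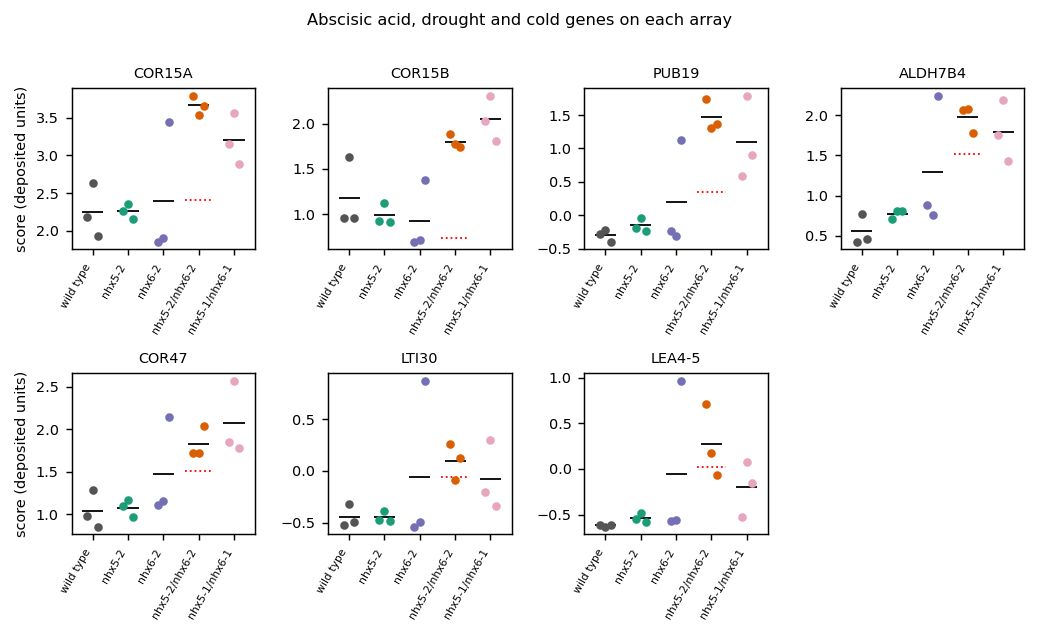
Level in deposited units (y axis of each panel, with its own range) of the 7 measured genes that respond to abscisic acid, drought and cold on each of the 15 arrays (points) by genotype, with the genotype mean as a black line and the level that the sum of both single losses would give as a red dotted line. In each panel 1 nhx6-2 array stands above the other 2, as in COR15A, and lifts the dotted line.

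Of 3 clock and light genes, CCL passed. GI, a core gene of the evening clock, had an effect of 0.24 ± 0.057 (adjusted p = 0.0757) with a double at 0.089 from wild type. HYH, a transcription factor of light responses, fell with the double at -0.75 (adjusted p = 5.32e-05) where the singles gave -0.42 and -0.54, and its effect of 0.21 ± 0.091 did not pass (adjusted p = 0.334). CHIL, a helper of flavonoid synthesis, had singles at -0.68 and -0.80 and a double at -1.11, an effect of 0.37 ± 0.093 (adjusted p = 0.0911). None of 6 flavonoid and anthocyanin genes passed (median 0.27). Against wild type the limma adjusted p of nhx5-2 and nhx6-2 was 0.0305 and 0.00613 for HYH and 0.0019 and 0.000677 for CHIL.

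Markers of other cell types were looked at because fewer cells of a type and less RNA per cell cannot be told apart in whole leaves. The guard cell gene AT1G22690 stood -0.98 from wild type in nhx5-2/nhx6-2 (adjusted p = 0.000178) and had an effect of -0.60 ± 0.15 that did not pass (adjusted p = 0.0855). The level of the guard cell list, the median of its 2 genes, ranged from -0.00051 to 0.12 in nhx5-2/nhx6-2 and from 0.38 to 0.64 on the other 9 arrays. In nhx5-1/nhx6-1 it was 0.26, 0.34 and 0.40. The other member, FMA, had an effect of -0.099 ± 0.049 (adjusted p = 0.401) and did not pass in nhx5-2/nhx6-2 against wild type. A median of 2 genes is their mean, so the list level can move with AT1G22690 alone. Over all probe sets, the nhx5-2/nhx6-2 arrays lay apart from the other 9 in 12.6%. The trichome gene TRY fell in nhx5-2/nhx6-2, by 0.34 from wild type (adjusted p = 0.0126). It read 0.55, 0.64 and 0.67 in wild type, 0.28, 0.30 and 0.24 in nhx5-2/nhx6-2 and 0.29, 0.31 and 0.30 in nhx5-1/nhx6-1. Its effect was -0.15 ± 0.11 (adjusted p = 0.603), and the 2 root genes and CLV3 lay near the level of the controls. The part of guard cells and trichomes in the effects was not tested. No member of the lists of flower and vascular markers could be identified in the annotation used, so these were not assessed.

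None of the 69 plastid genes passed. Of the 69, 7 had an effect above zero, against 11396 of all 22746 probe sets. At an unadjusted p under 0.05 there were 16 of the 69, against 14.1% of all probe sets. The median effect of the 69 was -0.34. It was -0.12 without wild type replicate 2, and 0.72, of the opposite sign, with the 3′ minus 5′ covariate. The largest was psaJ, a small subunit of photosystem I, with -2.08 ± 0.58 (adjusted p = 0.125). None of the 16 mitochondrial genes passed (median 0.051). The remaining lists, of 1 to 4 measured genes each, held no gene past the threshold, and their medians moved with single arrays. Over the 12 fits without 1 array the median ran from -0.31 to -0.042 for 3 salicylic acid genes, from 0.027 to 0.17 for 3 jasmonate genes and from -0.34 to -0.081 for 3 touch genes. The salicylic acid and touch values nearest zero were those without nhx6-2 replicate 3, and the lowest jasmonate value that without nhx5-2/nhx6-2 replicate 3. Without both nhx5-2 replicate 1 and nhx6-2 replicate 3 the touch median was 0.029. It ran from -0.11 to -0.073 for 4 auxin genes, from -0.069 to -0.022 for 4 heat shock genes and from 0.091 to 0.23 for 2 iron and phosphate genes. It crossed zero for 2 glucosinolate genes (-0.047 to 0.47) and 2 lipid transfer genes (-0.28 to 0.090), and ran from -0.28 to -0.17 for the 1 senescence gene.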

How the data were processed

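The values are the authors' deposited scores, log-like, 1 for each array and probe set. How they were background-corrected, normalized and logged, the sources used here do not state. Per the labels' protocols, 6 µg of total RNA were labelled for each Affymetrix Arabidopsis array. The score was used as deposited. The plan had foreseen linear or log2 values.

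The platform annotation named the probe sets: 13513 had 1 gene, 503 several and 8730 are not listed. Names and chromosomes came from the TAIR10.1 gene table, which matched 13436 of the 13513. The 4 genotype means were fitted over 12 arrays with limma 3.58.1 in R 4.3.3 (lmFit, eBayes), with 8 residual degrees of freedom. nhx5-1/nhx6-1 was compared in a fit of 15 arrays. An exact test of 3 against 3 arrays cannot go below 0.1. The slope per doubling comes from 9 spike-in probe sets with assumed nominal concentrations of 1.5, 5, 25 and 100 pM, and fold values are 2 to the difference divided by it. Simulated data were used to check the fit. The members, gene lists and the rule for named genes (the 15 largest effects each way with 1 gene, and up to 4 members per list with the smallest p) were chosen with earlier results of these data known. Alternatives covered leaving out each array, scaling, weights, covariates and the scale. No sequences were printed.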

Additional observations from a re-analysis of the deposited data

Results flagged for a closer look

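The 254 probe sets with a non-additive effect are those whose change on losing NHX6 differed with and without NHX5, by limma's test of the difference itself. Of the named genes, AT2G37870, AT3G53980 and AT4G33550 also differed between both double knockouts. In the fit of 15 arrays, nhx5-1/nhx6-1 minus nhx5-2/nhx6-2 was -1.24 for AT2G37870 (adjusted p = 0.0227), -1.18 for AT3G53980 (adjusted p = 0.0123) and -0.84 for AT4G33550 (adjusted p = 0.0229). In that fit 86 probe sets of all (0.378%) differed between the double knockouts, 7 of them among the 254. The other 4 of these 7 were AT3G19620 with -0.41, AT4G23870 with 0.31, TUB5 with 0.48 and an unlisted probe set with 0.40.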

How the results depend on the processing

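The effect of all 254 probe sets kept its sign in every alternative run. This was largely fixed in advance, since the 254 were chosen on these same arrays. Using all 15 arrays, a replicate block or eBayes with trend and robust leaves the effect itself unchanged. With all 15 arrays, 22 passed (10 above and 12 below the sum), and with the 3′ minus 5′ covariate 1 (1 above, 0 below, with 1047 at an unadjusted p under 0.05). Leaving out 1 array gave 49 to 693 probe sets (34 to 354 above, 15 to 339 below). Without replicate 1, 2 or 3 it was 54, 113 and 129 for wild type, 333, 123 and 99 for nhx5-2, 157, 104 and 693 for nhx6-2, and 49, 101 and 147 for nhx5-2/nhx6-2. The count was 489 with arrays scaled to the same SD (333 and 156), 662 after quantile normalization (427 and 235) and 3529 with array weights (1592 and 1937). On the linear scale it was 182, with 154 above and 28 below, and 13 of the 30 named genes passed. An alternative chosen after seeing the data left out nhx5-2 replicate 1 and nhx6-2 replicate 3 together and gave 1553 (558 and 995). With a replicate block 109 passed (67 and 42), among them 20 of the 30 named genes. The replicate numbers do not pair the arrays: the deviations of same-numbered arrays correlated with a median of -0.074 over 18 pairs, 3 of them over 0.1, and 1 of 12 arrays correlated best with its own number. The same median (243), dim probe sets left out (264) and eBayes with trend and robust (235) stayed within 1.5 times of 254. The cause of these differences was not tested, and 3 arrays per genotype limit the precision.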
